A study of Mus musculus with 4 samples.

Results

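The genes that build and run the contractile machinery of the heart were followed in whole mouse embryos that lacked Ddx6, an RNA helicase acting in mRNA decay and translational repression, and in wild-type (WT) embryos. The set was a list of 41 gene symbols for sarcomere proteins, calcium handling proteins, assembly factors and early cardiac response genes, out of 24421 genes in the count table. A gene counted as measured when it had at least 10 reads in at least 1 library, and 36 of the 41 did, as did 14393 genes of the whole table. The 5 genes below that minimum were Tcap, Casq2, Pln, Sln and Nppa, which had at most 6 reads in any library.

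The study compared polyadenylated RNA of ICR strain embryos in 4 libraries. There was 1 library of WT embryos at embryonic day (E) 7.5, named E7.5 WT, and 1 at E8.5, named E8.5 WT. The other libraries, KO1 and KO2, came from E8.5 embryos of the genotype Ddx6 -/-, in which every cell carries the deletion. Per the study's text, each KO library was a pool of embryos, with KO1 mixing embryos from before and after head-fold formation and KO2 holding embryos from before it alone. The study describes the KO embryos as delayed, and genotype and morphological stage cannot be told apart in any comparison with E8.5 WT. In these whole embryos, fewer heart cells and less RNA per heart cell cannot be told apart either.

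Total counts lay between 8198402 in KO1 and 12562640 in E8.5 WT. Ddx6 had 2943 reads in the E7.5 WT library and 5715 in the E8.5 one, against 706 in KO1 and 929 in KO2, so its level in CPM (counts scaled to the same total per library, by TMM) was lowest in the KO libraries. Heart muscle transcripts were present in E8.5 WT, where 35 of the 41 genes reached 10 reads, while 20 did in E7.5 WT and, of the KO libraries, 25 in KO1 and 27 in KO2. The skeletal myogenic regulators Myf5, Myod1, Myog and Myf6 had at most 3 reads in any library. Markers of the decidua and placenta stood apart, with a summed level over 6 measured genes of 147 CPM at E7.5 and 5.11 at E8.5 in WT, 12.1 in KO1 and 621 in KO2. Tpbpa, which marks the spongiotrophoblast, had 0 reads in all 4 libraries.

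The sarcomere is the repeating unit of striated muscle. Thick filaments of myosin, a motor protein, pull on thin filaments of actin, which are anchored at the Z-disc, while titin spans from the Z-disc to the M-band. Calcium released through ryanodine receptors binds troponin and moves tropomyosin away from the actin surface, and a pump then returns calcium to the sarcoplasmic reticulum. In the mouse the cardiac crescent and the linear heart tube form, and beating starts, in the interval between the stages sampled here. Serum response factor (SRF), which binds the CArG box, and MEF2 proteins are known regulators of these genes, and myocardin, the product of Myocd, is a coactivator of SRF.

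The promoters of the contraction genes were searched for these elements, on both strands, in the 300 bases from 250 before to 50 after each RefSeq start site of GRCm38. RefSeq sequences were matched for 34 of the 41 genes, with 44 promoters. A CArG box lay in 8 of the 44 promoters (18.2%), against 1.63% of all 32851 mouse promoters of that length. The same Ldb3 box was counted through overlapping promoters of that gene. The 7 genes with a CArG box are shown here because they belong to the thin filament, thick filament, Z-disc and M-band groups whose values follow. Each window is 30 bases on the gene's own strand, 5′ to 3′, with the CArG box in capitals.
Actc1, chr2:114052903-114052932, minus strand: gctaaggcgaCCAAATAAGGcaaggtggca
Acta1, chr8:123894829-123894858, minus strand: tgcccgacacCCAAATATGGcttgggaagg
Myl3, chr9:110763583-110763612, plus strand: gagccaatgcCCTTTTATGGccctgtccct
Myl7, chr11:5898824-5898853, minus strand: ccattcctctCCTTATTTGGgcctctgggt
Ldb3, chr14:34588697-34588726, minus strand: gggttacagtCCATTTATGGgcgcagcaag
Myom1, chr17:71019448-71019477, plus strand: gccttcctggCCATAAAAGGctggctgtgg
Nebl, chr2:17462999-17463028, minus strand: gctcccatctCCTAAATTGGctggaaatgc

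A MEF2 site lay in 5 of the 44 promoters (11.4%), against 1.86% of all promoters. Among measured genes it was in those of Mybpc3, Ttn and Synpo2l. Their windows are given in the same form, with the MEF2 site in capitals.
Mybpc3, chr2:91118044-91118073, plus strand: tggaatttgtCTATATTTAGcaggtggcta
Ttn, chr2:76982694-76982723, minus strand: ttctgaaaggCTAAATTTAGcactgccaat
Synpo2l, chr14:20668444-20668473, minus strand: gaaatttgtaCTATAATTAGttctaggagt
The GATA motif AGATAA was in 18.2% of these promoters and 11.2% of all, the M-CAT motif CATTCC in 31.8% and 14.7%, TATAAA in 20.5% and 13.6%, and the E-box CAGCTG in 31.8% and 16.3%. None of these matches says that a factor was bound in the embryos.

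The first question was how the contraction genes of KO embryos compared with those of E8.5 WT. Most were lower. Actc1 (cardiac alpha-actin), Smyd1 (a methyltransferase needed for myofibril assembly) and Myh7 (beta myosin heavy chain) were lower by 7.47-fold or more in each KO library. Of the 36 measured genes, 17 were lower by more than 2-fold in both KO libraries and 0 were higher in both. Over all 14393 genes these shares were 1.74% and 3.48%. In KO1 taken by itself 18 were lower and 1 (Tnni1) higher, against 3.18% and 5.07% of all genes. In KO2 taken by itself 24 were lower and 3 (Tnnt1, Des and Nppb) higher, against 5.89% and 9.48%. Nppb reached 10 reads in KO2 alone, so it could hardly have been anything but higher there. The median log2 change was −0.99 in KO1 and −1.95 in KO2 (mean −1.47 ± 0.67, SD, n = 2), while that of all genes was 0.00 in each. Of the 36, 5 (Myl2, Mybpc3, Csrp3, Myom1 and Xirp1) reached 10 reads in E8.5 WT alone, so they could hardly have been anything but lower elsewhere. Without them 13 of 31 were lower in both KO libraries, 14 in KO1 and 19 in KO2, and the medians were −0.90 and −1.67.

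No gene passed the main test of this comparison. edgeR's quasi-likelihood test, whose spread came from the KO pair alone, called 0 of the 36 and 0 of the 14393 genes at an adjusted p under 0.05, with adjusted p between 0.663 and 0.946 for the contraction genes. At an unadjusted p under 0.05 it named 15 contraction genes, all lower, where 2.78% of all genes were lower and 4.59% higher. DESeq2, the other tool run, called 2 of the 36, Actc1 (adjusted p = 1e-06) and Myh7 (adjusted p = 0.000993), both lower, and edgeR called Actc1 alone (adjusted p = 0.02345) when the filter on low counts was removed. Of all genes, DESeq2 called 0.118% lower and 0.0973% higher. With 1 library for each WT stage, the spread between WT embryos was not measured.

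**Figure D1:**
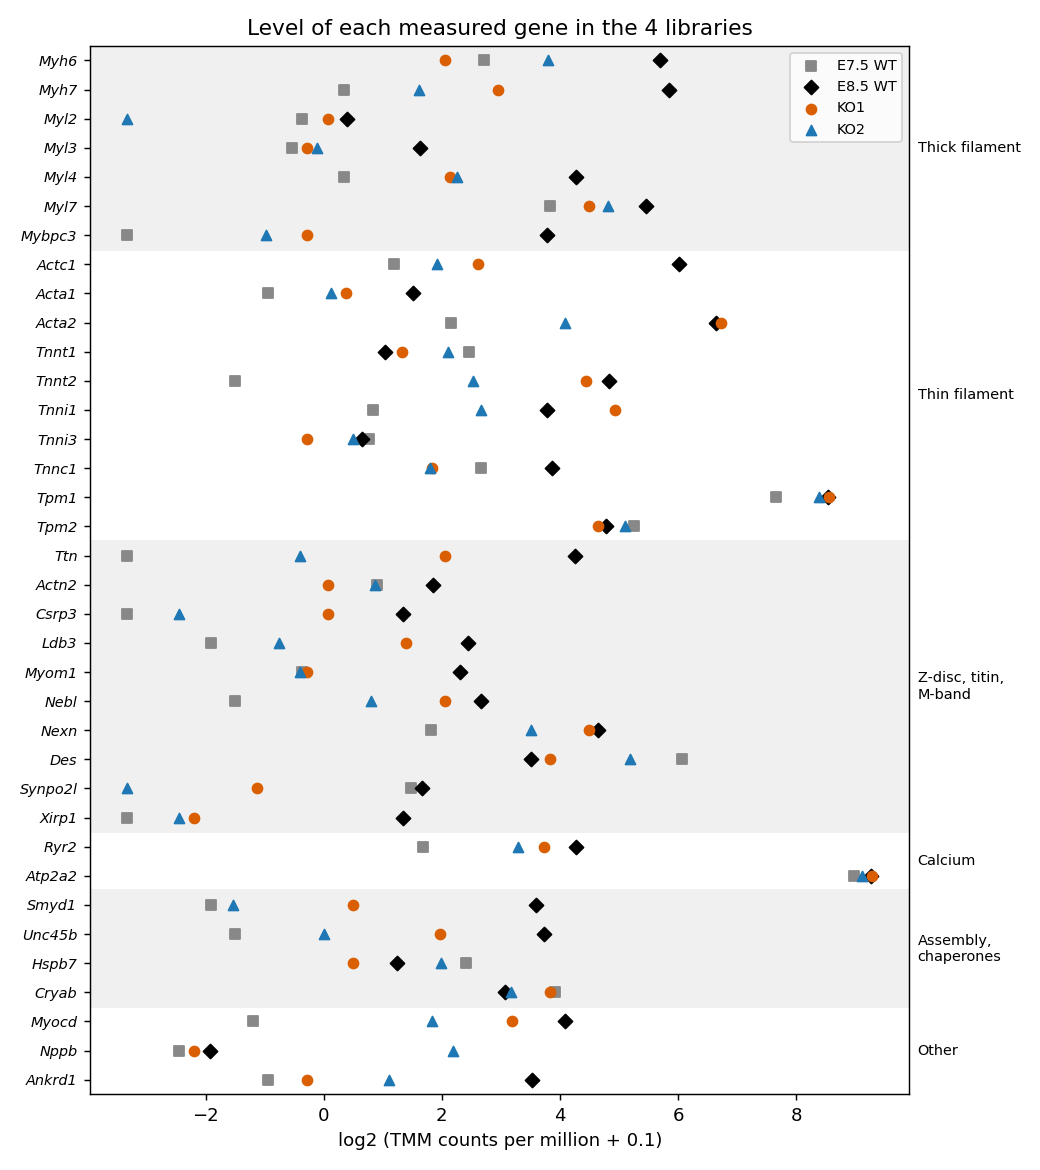
Level of each measured contraction gene in the 4 libraries, on a log2 scale of TMM-normalized CPM with 0.1 added, with genes grouped by role. Atp2a2 and Tpm1 lie far to the right in every library, while Mybpc3, Ttn, Csrp3 and Xirp1 had 0 reads in E7.5 WT.

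Of the thick filament genes, 5 of 7 were lower past 2-fold in both KO libraries, where 1.74% of all genes were, and the KO1 and KO2 medians were −2.11 and −2.00. Without Mybpc3 and Myl2, which reached 10 reads in E8.5 WT alone, 4 of 5 were lower. Myh6, the alpha myosin heavy chain, had 638 reads in WT embryos at E8.5 and 77 at E7.5, and 34 in KO1 against 168 in KO2. Both KO libraries were under E8.5 WT, by 12.7-fold in KO1 and 3.75-fold in KO2, and KO1 was also under E7.5 WT in CPM. Its neighbour Myh7 had 64 reads in KO1 and 36 in KO2, against 705 in the E8.5 WT library and 14 in the E7.5 one. Here KO2 was the lower of the pair, at 19.3-fold under E8.5 WT against 7.47-fold in KO1. The mean log2 change of Myh7 was −3.53 ± 0.93 (SD, n = 2), larger than the spread between the KO libraries.

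The light chains of myosin, which stiffen the lever of the motor, differed in the size of their deficit. Myl4, the atrial essential light chain, had 14 reads at E7.5 and 237 at E8.5 in WT embryos, with 36 in KO1 and 57 in KO2. Myl3, its ventricular counterpart, had 7 reads in the E7.5 WT library and 37 in the E8.5 one, against 6 in KO1 and 10 in KO2. In both genes the KO libraries lay close together and under E8.5 WT, with mean log2 changes of −2.06 ± 0.08 for Myl4 and −1.75 ± 0.11 for Myl3 (SD, n = 2). Myl7, the atrial regulatory light chain, had 538 reads in WT embryos at E8.5 and 168 at E7.5, and 188 in KO1 against 341 in KO2. Its log2 changes of −0.95 in KO1 and −0.64 in KO2 stayed inside 2-fold, with counting intervals below 0 in both. Myl2, the ventricular regulatory light chain, had 8 reads in KO1 and 0 in KO2, against 15 in the E8.5 WT library and 8 in the E7.5 one, and these counts are too low to rank the libraries beyond KO2, which was at least 4.94-fold under E8.5 WT. Mybpc3 is the cardiac myosin-binding protein C, which links myosin to titin and actin. It had 0 reads at E7.5 and 168 at E8.5 in WT embryos, with 6 in KO1 and 5 in KO2. That placed KO1 18.98-fold and KO2 33.2-fold under E8.5 WT.

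**Figure D2:**
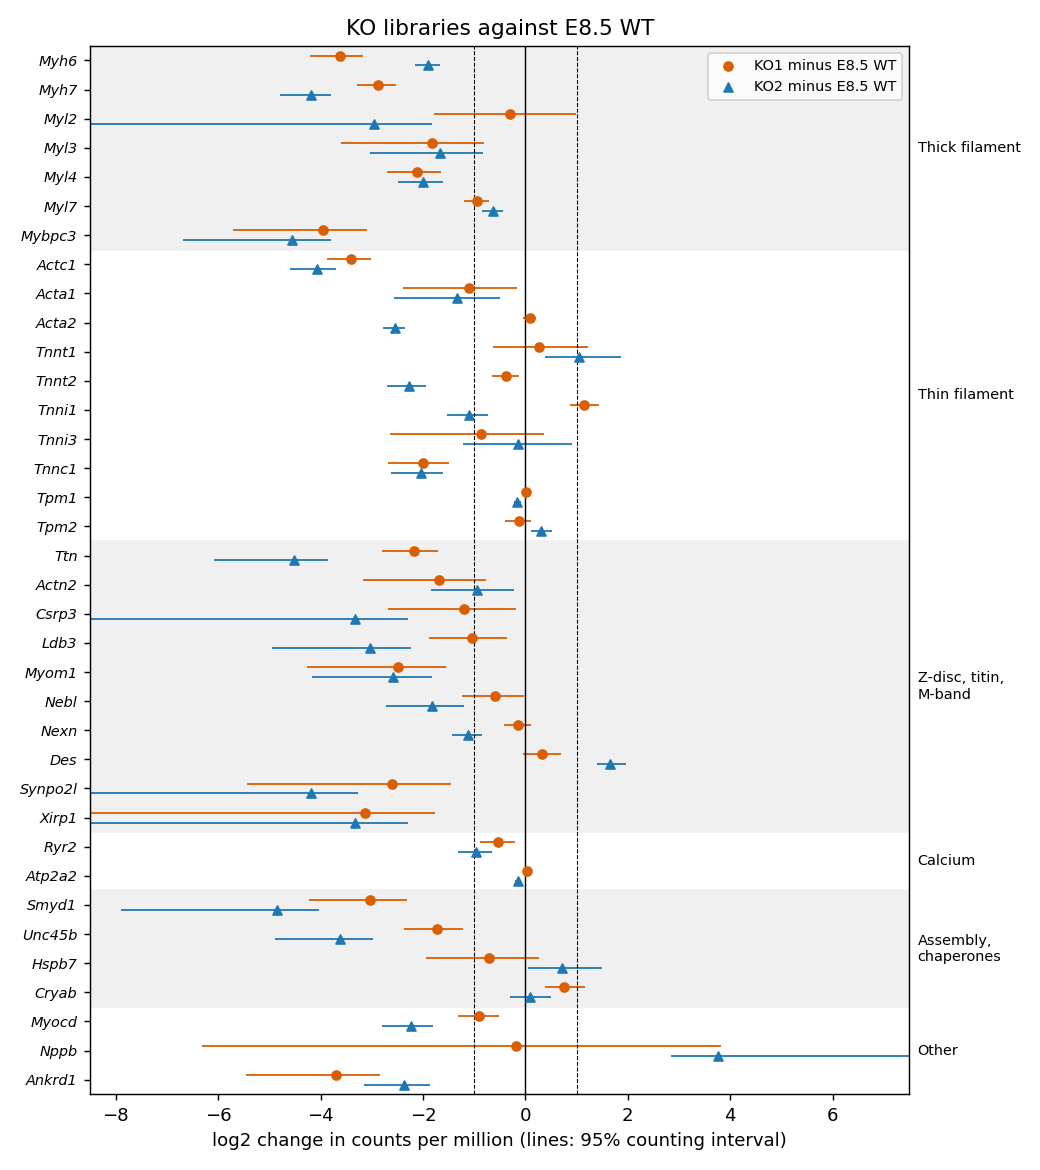
Log2 change against E8.5 WT of each measured contraction gene in either KO library, with 95% counting intervals as lines (cut at the edge of the plot), 0 as the solid line and 2-fold as dashed lines. Both points of 17 genes, among them Actc1, Myh7 and Smyd1, lie left of the lower dashed line. No gene has both points right of the upper one.

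Thin filament genes were uneven: 3 of 10 (Actc1, Acta1 and Tnnc1) were lower past 2-fold in both KO libraries, where 1.74% of all genes were. The group medians were −0.26 for KO1 and −1.22 for KO2. Actc1 had 26 reads in the E7.5 WT library and 799 in the E8.5 one, against 50 in KO1 and 45 in KO2. The KO libraries lay closer to E7.5 WT, which KO1 exceeded by a log2 change of 1.38 and KO2 by 0.72, than to E8.5 WT. They were 10.8-fold and 17.5-fold under E8.5 WT (mean log2 change −3.73 ± 0.47, SD, n = 2; edgeR unadjusted p = 0.000397, adjusted p = 0.663). Acta1, skeletal alpha-actin, which the embryonic heart also transcribes, had 34 reads in WT embryos at E8.5 and 5 at E7.5, and 10 in KO1 against 12 in KO2. Tnnc1, the calcium-binding troponin C of heart and slow muscle, had 29 reads in KO1 and 41 in KO2, against 178 in the E8.5 WT library and 74 in the E7.5 one. Tnnc1 was under both WT libraries in both KO libraries, and its log2 changes against E8.5 WT, −2.00 and −2.04, were nearly equal.

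Other thin filament genes set KO1 apart from KO2. Acta2, smooth muscle alpha-actin, which early heart muscle transcribes as well, had 52 reads at E7.5 and 1229 at E8.5 in WT embryos, with 886 in KO1 and 205 in KO2. KO1 was at the CPM of E8.5 WT (log2 change 0.09, 95% counting interval −0.04 to 0.22), while KO2 was 5.92-fold lower. Tnnt2, cardiac troponin T, had 3 reads in the E7.5 WT library and 347 in the E8.5 one, against 180 in KO1 and 69 in KO2, with log2 changes against E8.5 WT of −0.38 and −2.28. Tnni1, the slow skeletal troponin I that embryonic heart muscle uses, had 168 reads in WT embryos at E8.5 and 20 at E7.5, and 253 in KO1 against 76 in KO2. It was the only contraction gene past 2-fold in opposite directions, at 1.14 in KO1 and −1.10 in KO2, so its mean of 0.02 ± 1.59 (SD, n = 2) describes neither library. Tnni3, the adult cardiac troponin I, was low in all libraries, with 6 reads in KO1 and 16 in KO2, against 18 in the E8.5 WT library and 19 in the E7.5 one.

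Tropomyosins and slow troponin T lay close to E8.5 WT or above it in the KO libraries. Tpm1 had 2410 reads at E7.5 and 4571 at E8.5 in WT embryos, with 3129 in KO1 and 4053 in KO2, which gave log2 changes against E8.5 WT of 0.01 and −0.16. Tpm2 had 453 reads in the E7.5 WT library and 337 in the E8.5 one, against 208 in KO1 and 414 in KO2. Both tropomyosins are also made outside striated muscle, and Tpm1 was the second most abundant contraction gene per kilobase of exon in each library. Tnnt1, slow skeletal troponin T, had 24 reads in WT embryos at E8.5 and 64 at E7.5, and 20 in KO1 against 51 in KO2. KO2 was above E8.5 WT by a log2 change of 1.04, with a counting interval from 0.38 to 1.87, while KO1 was at 0.28.

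Among the Z-disc, titin and M-band genes, 6 of 10 measured were lower past 2-fold in both KO libraries, where 1.74% of all genes were, and the medians were −1.45 for KO1 and −2.82 for KO2. Without Csrp3, Myom1 and Xirp1, which reached 10 reads in E8.5 WT alone, 3 of 7 were lower. Ttn, which encodes titin, had 34 reads in KO1 and 8 in KO2, against 235 in the E8.5 WT library and 0 in the E7.5 one. The order was E8.5 WT, KO1, KO2, with KO1 4.69-fold and KO2 29.0-fold under E8.5 WT. Ldb3, a Z-disc protein also called cypher, had 2 reads at E7.5 and 66 at E8.5 in WT embryos, with 21 in KO1 and 6 in KO2. Csrp3, muscle LIM protein, had 0 reads in the E7.5 WT library and 30 in the E8.5 one, against 8 in KO1 and 1 in KO2. Ldb3 and Csrp3 followed the same order as Ttn, although their log2 changes in KO1, −1.04 and −1.20, lay just past 2-fold. The KO2 count of Csrp3 was too low for more than a ratio of E8.5 WT to KO2 of 29.6 (95% counting interval 4.93 to 1209), and the KO1 change of Ldb3 was inside 2-fold when counts were scaled by library totals alone.

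Myom1, the M-band protein myomesin, had 60 reads in WT embryos at E8.5 and 8 at E7.5, and 6 in KO1 against 8 in KO2. Xirp1, an actin-binding protein of cell junctions in the heart, had 1 read in KO1 and 1 in KO2, against 30 in the E8.5 WT library and 0 in the E7.5 one. In both genes KO1 and KO2 were alike and under E8.5 WT. The mean log2 change of Myom1 was −2.54 ± 0.07 (SD, n = 2), and the ratio of E8.5 WT to KO for Xirp1 was 20.3 (95% counting interval 3.38 to 830) in KO1 and 29.6 (4.93 to 1209) in KO2. Synpo2l, a Z-disc protein, was nearly absent from the KO libraries alone. It had 32 reads at E7.5 and 38 at E8.5 in WT embryos, with 3 in KO1 and 0 in KO2. The WT stages were alike, KO2 was at least 12.5-fold under E8.5 WT, and the ratio of E8.5 WT to KO1 was 8.59 (95% counting interval 2.72 to 43.5).

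The other Z-disc genes were not lower past 2-fold in both KO libraries. Nexn, an actin-binding protein, had 41 reads in the E7.5 WT library and 305 in the E8.5 one, against 186 in KO1 and 137 in KO2. Nebl, which encodes nebulette, had 77 reads in WT embryos at E8.5 and 3 at E7.5, and 34 in KO1 against 20 in KO2. Both were past 2-fold in KO2 alone, with log2 changes of −1.12 for Nexn and −1.82 for Nebl. Actn2, the sarcomeric alpha-actinin, had 8 reads in KO1 and 21 in KO2, against 43 in the E8.5 WT library and 21 in the E7.5 one, and was past 2-fold in KO1 alone. Des, the intermediate filament protein desmin that links Z-discs, went the other way and had 792 reads at E7.5 and 139 at E8.5 in WT embryos, with 118 in KO1 and 439 in KO2. Its KO2 level was above E8.5 WT by a log2 change of 1.66 (95% counting interval 1.40 to 1.96) and under E7.5 WT. Des was thus high in the libraries where decidua and placenta markers were high, and their part in it was not tested.

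Of the calcium handling genes only Ryr2 and Atp2a2 were measured, and neither was past 2-fold in either KO library. Ryr2, the cardiac ryanodine receptor, had 37 reads in the E7.5 WT library and 236 in the E8.5 one, against 110 in KO1 and 118 in KO2. Its log2 changes of −0.53 and −0.97 had counting intervals below 0 in both libraries. Atp2a2, the calcium pump SERCA2, which most cell types make, had 7555 reads in WT embryos at E8.5 and 5989 at E7.5, and 5202 in KO1 against 6713 in KO2, with log2 changes of 0.02 and −0.15. Casq2, the calcium-binding protein calsequestrin, had at most 5 reads in a library, and Pln and Sln, small inhibitors of the pump, had 0 in all.

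Among assembly factors and chaperones the muscle-restricted pair was low in the KO libraries. Smyd1 had 11 reads in KO1 and 3 in KO2, against 148 in the E8.5 WT library and 2 in the E7.5 one. Unc45b, the chaperone that folds the myosin head, had 3 reads at E7.5 and 162 at E8.5 in WT embryos, with 32 in KO1 and 11 in KO2. In each, KO2 was the lower KO library. Unc45b had log2 changes against E8.5 WT of −1.73 and −3.62, and Smyd1 was 9.12-fold lower in KO1, with a ratio of E8.5 WT to KO2 of 48.7 (95% counting interval 16.3 to 239). Cryab, the small heat shock protein alpha-B crystallin, had 178 reads in the E7.5 WT library and 102 in the E8.5 one, against 118 in KO1 and 108 in KO2. Hspb7, another small heat shock protein of muscle, had 28 reads in WT embryos at E8.5 and 62 at E7.5, and 11 in KO1 against 47 in KO2. Both heat shock proteins stayed within 2-fold of E8.5 WT in each KO library.

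Myocd had 75 reads in KO1 and 42 in KO2, against 208 in the E8.5 WT library and 4 in the E7.5 one. Its log2 changes against E8.5 WT were −0.90 in KO1 and −2.23 in KO2, and both KO libraries were above E7.5 WT. Ankrd1, a stretch-responsive protein of the titin complex, had 5 reads at E7.5 and 141 at E8.5 in WT embryos, with 6 in KO1 and 25 in KO2, which placed KO1 15.9-fold and KO2 5.57-fold under E8.5 WT. Nppb, which encodes B-type natriuretic peptide, had 1 read in the E7.5 WT library and 2 in the E8.5 one, against 1 in KO1 and 54 in KO2, so its signal came from KO2 alone, the library with the highest level of decidua and placenta markers. Tnnt1 and Hspb7, like Des, had more reads in E7.5 WT and KO2 than in the libraries low in those markers. The part of decidua and placenta RNA in these reads was not tested.

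The next question was how far the KO embryos had come relative to the WT a day earlier. Most of these genes were higher in WT at E8.5 than at E7.5. From E7.5 WT to E8.5 WT, 24 of the 36 were higher past 2-fold and 3 (Tnnt1, Des and Hspb7) were lower, against 12.2% and 7.82% of all genes. The median log2 difference was 2.68, and that of all genes was −0.02. Without the 5 genes that reached 10 reads in E8.5 WT alone, 20 of 31 were higher and the median was 2.56. Both stages had 1 library, so this step has no replicate check.

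Among the contraction genes with reads at both stages, Tnnt2 had the largest ratio of E8.5 WT to E7.5 WT, 112 (95% counting interval 38.0 to 545), from the 347 and 3 reads given above. Next came Smyd1, with a ratio of 71.5 (19.5 to 596), Unc45b with 52.2 (17.5 to 256), Myocd with 50.3 (19.3 to 186) and Myh7 with 48.7 (28.8 to 89.5). These rest on at most 4 reads in E7.5 WT except for Myh7, which had the narrowest interval. Against the floor of 3 reads, Ttn was at least 75.7-fold and Mybpc3 at least 54.1-fold higher at E8.5.

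Against E7.5 WT, 12 of the 36 were higher past 2-fold in both KO libraries and 1, Synpo2l, was lower, where 7.02% and 2.67% of all genes were. In single libraries, 17 were higher and 4 lower in KO1, against 13.3% and 7.34% of all genes, and 15 were higher and 2 lower in KO2, against 10.9% and 4.02%. Nppb, among the 15, reached 10 reads in KO2 alone. The 12 came from every role: Myh7, Myl4 and Mybpc3 of the thick filament, Acta2, Tnnt2 and Tnni1 of the thin filament, Ttn, Nebl and Nexn of the Z-disc and titin group, and Ryr2, Unc45b and Myocd. Tnnt2 had a ratio to E7.5 WT of 85.6 (95% counting interval 28.8 to 419) in KO1 and 22.5 (7.39 to 112) in KO2. Myocd had ratios of 26.7 (10.02 to 101) and 10.3 (3.73 to 39.5). Median log2 changes were 0.81 in KO1 and 0.84 in KO2, or 0.72 in KO2 with genes at 0 reads set to their bound, against 0.03 and 0.07 for all genes. With a minimum of 50 counts they were 1.57 and 1.16. Among the 12 higher genes, Mybpc3 and Ttn had 0 reads in E7.5 WT and few in KO2. Without the 5 genes that reached 10 reads in E8.5 WT alone, 11 of 31 were higher in both KO libraries. With a prior count of 0.5, 16 of the 36 were.

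edgeR's quasi-likelihood test called 0 of the 36 and 0 of all genes against E7.5 WT after adjustment, the smallest adjusted p being 0.123, for Tpm1. At an unadjusted p under 0.05 it named 13 higher and 1 lower, where 14.1% and 10.5% of all genes were named. DESeq2 called 6 of the 36 higher (Tnnt2, Tnni1, Tpm1, Ttn, Nexn and Myocd) and 0 lower, against 2.92% and 2.14% of all genes. It gave no adjusted p for 17 of the 36.

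The comparisons with E7.5 WT and E8.5 WT share the KO libraries, so the values are set side by side. In 22 of the 36 genes both KO libraries lay between the WT stages, a position held by 26.3% of all genes. Without the genes measured through E8.5 WT alone, 19 of 31 lay there. A wide gap between the WT stages leaves more room for this position. From E7.5 WT to E8.5 WT, 24 of the 36 were higher past 2-fold, against 12.2% of all genes. The share of all genes is therefore not a like-for-like reference for the 22. Nexn was one of the 22, with a level of 1.19 CPM per kilobase in E7.5 WT, 3.89 in KO2, 7.69 in KO1 and 8.55 in E8.5 WT. Tnni3, Tnnc1, Actn2 and Synpo2l were under both WT libraries in both KO libraries, as 17.1% of all genes were. Of these, Actn2 was nearly level between KO2 and E7.5 WT, at 0.57 and 0.59 CPM per kilobase. The counting intervals of Tnni3 against E8.5 WT did not lie below 0 in either KO library. No contraction gene was above both WT libraries in both, a position held by 18.9% of all genes.

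The KO libraries also differed from each other, which limits every comparison of KO with WT above. Their pools differed in stage, so stage and library variation cannot be told apart in this difference. It does not cover variation between WT libraries. KO2 was lower than KO1 past 2-fold in 13 of the 36 genes and higher in 5, against 4.97% and 5.93% of all genes. The 13 were Myh7, Myl2, Acta2, Tnnt2, Tnni1, Ttn, Csrp3, Ldb3, Nebl, Synpo2l, Smyd1, Unc45b and Myocd. The 5 were Myh6, Des, Hspb7, Nppb and Ankrd1. Nppb reached 10 reads in KO2 alone, so it could hardly have been anything but higher there. Without the 5 genes that reached 10 reads in E8.5 WT alone, which include Myl2 and Csrp3, KO2 was lower in 11 of 31. Acta2 differed by 6.30-fold with KO1 higher, and Tnni1 by 4.85-fold in the same direction. Myh6 went against Myh7, with KO2 3.39-fold higher than KO1 (log2 difference 1.72, 95% counting interval 1.22 to 2.34).

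**Figure D3:**
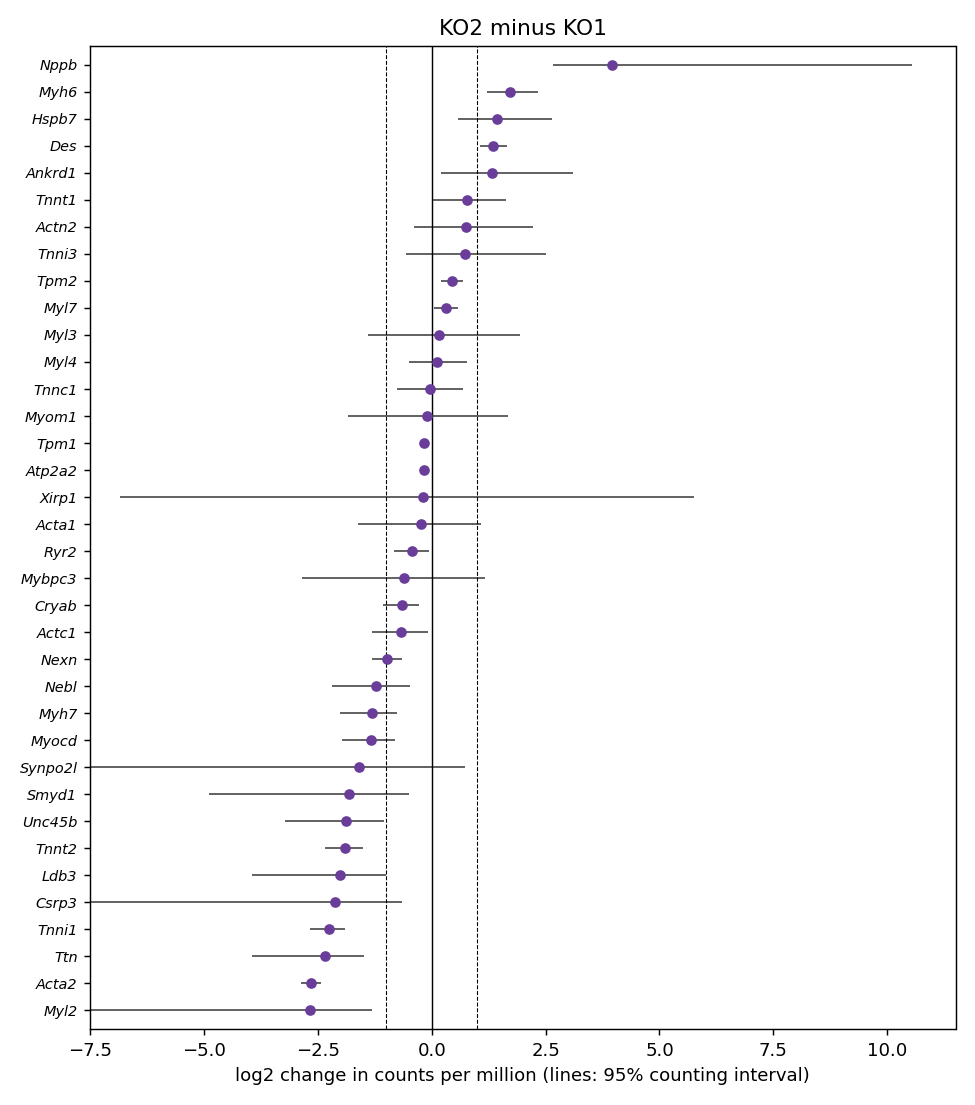
Log2 difference between KO2 and KO1 for each measured contraction gene, sorted, with 95% counting intervals as lines and 2-fold as dashed lines. Acta2, Tnni1 and Ttn lie left of −2, Myh6 and Des lie right of 1, and Nppb has the highest value, 3.95.

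Genes that lie next to each other could be compared on this difference. Tnni1 and Tnnt2 are 25.4 kb apart on chromosome 1, with the gene Lad1 between them, and both were lower in KO2 than in KO1, by log2 differences of −2.25 and −1.89. Tnnt1 and Tnni3 are 1.92 kb apart on chromosome 7, and their differences were 0.76 and 0.74, in the opposite direction. Tnni3 had few reads, and the counting interval of its difference included 0. Myh6 and Myh7 are 3.76 kb apart on chromosome 14 and differed in sign, as given above. These pairs were chosen after their values were seen.

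Shares of reads between paralogs within a library do not depend on how libraries are scaled. Myh6 took 84.6% of the Myh6 and Myh7 reads at E7.5 in WT (exact 95% interval 75.5 to 91.3), 47.5% at E8.5 (44.8 to 50.2), 34.7% in KO1 (25.4 to 45.0) and 82.4% in KO2 (76.4 to 87.3). KO2 thus had the share of E7.5 WT, with intervals that overlap, while the interval of KO1 met only the lower end of that of E8.5 WT. Tnnt1 took 95.5% of the troponin T reads at E7.5 and 6.47% at E8.5 in WT, 10% in KO1 and 42.5% in KO2, which placed KO1 near E8.5 WT and KO2 between the stages. Tnni1 took 51.3% of the troponin I reads at E7.5 and 90.3% at E8.5 in WT, 97.7% in KO1 and 82.6% in KO2.

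Cardiac actin took a smaller share of the muscle actin reads in the KO libraries than in either WT stage. Actc1 took 31.3% of the Actc1, Acta1 and Acta2 reads at E7.5 in WT (exact 95% interval 21.6 to 42.4), 38.7% at E8.5 (36.6 to 40.9), 5.29% in KO1 (3.95 to 6.91) and 17.2% in KO2 (12.8 to 22.3). The interval of KO1 did not meet that of either WT library, and that of KO2 overlapped only slightly with that of E7.5 WT. Acta2 took 62.7% at E7.5 and 59.6% at E8.5 in WT, and 93.7% in KO1 against 78.2% in KO2. Acta2 is made by smooth muscle and other mesoderm as well as by early heart muscle, and these sources could not be separated in whole embryos. The smooth muscle marker Tagln had 349 reads in WT embryos at E8.5 and 124 at E7.5, and 218 in KO1 against 189 in KO2, and its part in the Acta2 reads was not tested. Light chain shares moved little at E8.5: Myl4 took 86.5% of the Myl4 and Myl3 reads in WT, 85.7% in KO1 and 85.1% in KO2. Stretches of the muscle actins, and of Myh6 and Myh7, are nearly identical in sequence, and how reads matching more than 1 paralog were counted was not checked, so these shares are uncertain to that extent.

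**Figure D4:**
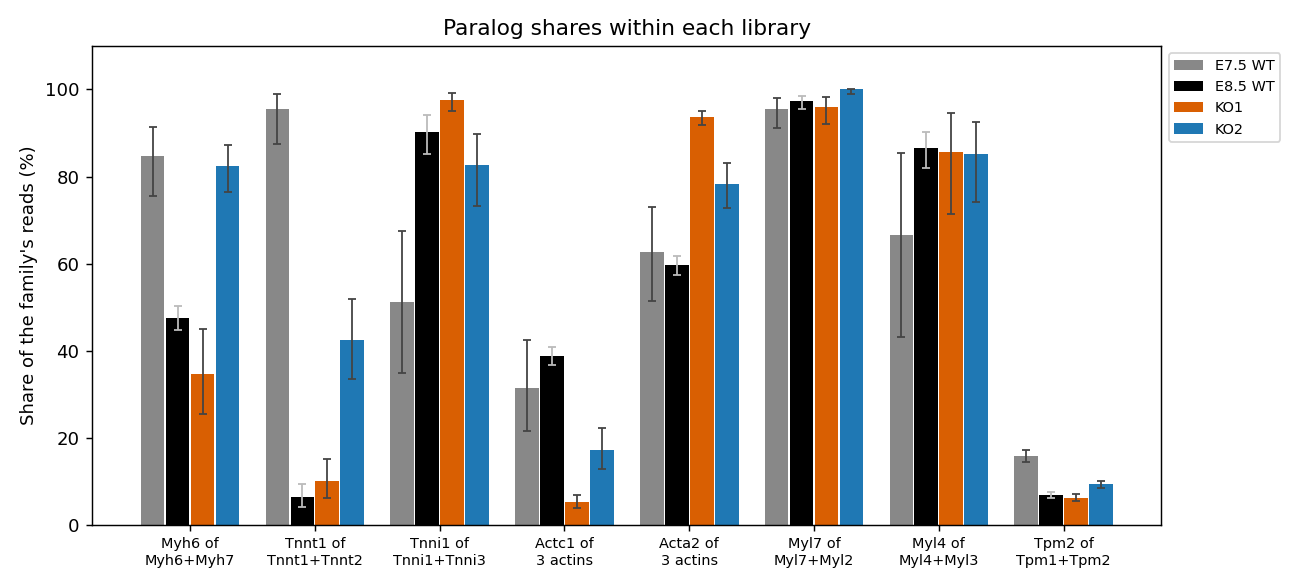
Share of each family's reads taken by 1 paralog in each library, in percent, as bars with exact 95% intervals as thin lines. The share of Myh6 is 84.6% in E7.5 WT and 82.4% in KO2 but under 50% in E8.5 WT and KO1, and the share of Actc1 is lowest in KO1 at 5.29%.

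Per kilobase of exon, Atp2a2 was first in every library, at 95.3 CPM per kilobase at E7.5 and 116 at E8.5 in WT, 118 in KO1 and 105 in KO2. Counted as reads, Atp2a2 and Tpm1 together took 79.3% of the reads of all 41 genes at E7.5 and 61.7% at E8.5 in WT, 75.03% in KO1 and 80.6% in KO2. The remaining 39 genes summed to 184 CPM in the E7.5 WT library and 611 in the E8.5 one, and to 332 in KO1 and 214 in KO2. By level, Actc1 ranked among the first 5 in E8.5 WT, at 44.0 CPM per kilobase, but was at 4.06 in KO1 and 2.51 in KO2.

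Of 5 other lists of heart, muscle and cytoskeleton genes, taken as a frame for these values, each had medians nearer 0 in both KO libraries. Of 49 further contraction genes, such as ion channels, junction proteins and Z-disc partners, 37 were measured, with medians of 0.11 in both KO libraries. Past 2-fold, 3 were lower and 1 higher in both, against 1.74% and 3.48% of all genes. Among the 37, Cacna1g, a pacemaker calcium channel, had log2 changes against E8.5 WT of −0.70 (KO1) and −2.09 (KO2). Tmod1, which caps the thin filament, was at −2.11 and −1.58, and Mylk3, the cardiac myosin light chain kinase, at −1.29 and −1.67. The highest were Pdlim3 (0.49 and 2.18), Cacna1h (0.66 and 1.62) and Fabp3 (0.42 and 1.72), each past 2-fold in KO2 alone.

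Medians of the 13 non-muscle actomyosin genes were 0.13 (KO1) and 0.02 (KO2), with 0 lower and 1, Myh14, higher in both. For the 10 measured skeletal muscle sarcomere genes they were 0.09 and 0.39, or 0.27 in KO2 with genes at 0 reads set to their bound, with 0 lower and 1 higher. The 7 smooth muscle markers had medians of −0.12 and −0.53, with 0 called in both KO libraries. Of the 7 skeletal myogenic markers only Pax3 and Meox1, which somites also make, were measured, with medians of −0.54 for KO1 and −4.48 for KO2, further from 0 in KO2 than the contraction genes. Primitive erythroid markers, by contrast, were low in both, with 6 of 7 lower past 2-fold, against 1.74% of all genes. Of 8 visceral endoderm markers 2 were, with medians of −0.90 for KO1 and −1.03 for KO2. Amn, Afp and Cubn of that list stayed inside 2-fold in both. A deficit in both KO libraries was thus not particular to heart muscle. The study genotyped embryos from extraembryonic tissue or yolk sac, and how much such tissue each library held is not given. Its part in these markers was not tested.

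Cardiac transcription factors, which act upstream of the contraction genes, had a median log2 change against E8.5 WT of 0.28 in KO1 and −0.20 in KO2 over 12 genes. Only Nkx2-5 was lower past 2-fold in both, and 0 were higher, against 1.74% and 3.48% of all genes. In KO1 taken by itself 1 was lower and 1 higher, against 3.18% and 5.07%. In KO2 taken by itself 5 were lower and 1 higher, against 5.89% and 9.48%. Nkx2-5, a homeobox factor of heart precursors, had 33 reads in KO1 and 10 in KO2, against 188 in the E8.5 WT library and 6 in the E7.5 one. Tbx5, a T-box factor of the heart tube, had 5 reads at E7.5 and 124 at E8.5 in WT embryos, with 94 in KO1 and 9 in KO2. Mesp1, a marker of nascent cardiac mesoderm, had 570 reads in the E7.5 WT library and 52 in the E8.5 one, against 52 in KO1 and 741 in KO2. Tbx5 in KO1 was thus at the level of E8.5 WT, and KO2 was near E7.5 WT in both Tbx5 and Mesp1. Isl1, a factor of the second heart field, was at −0.75 in KO1 and −1.75 in KO2. Hand1, a factor of heart and extraembryonic mesoderm, was at 1.23 and 0.87 (edgeR unadjusted p = 0.00574, adjusted p = 0.663), and Gata6 at 0.56 and 0.14. Unlike Tbx5 and Mesp1, Hand1 was above both WT libraries in each KO library.

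**Figure D5:**
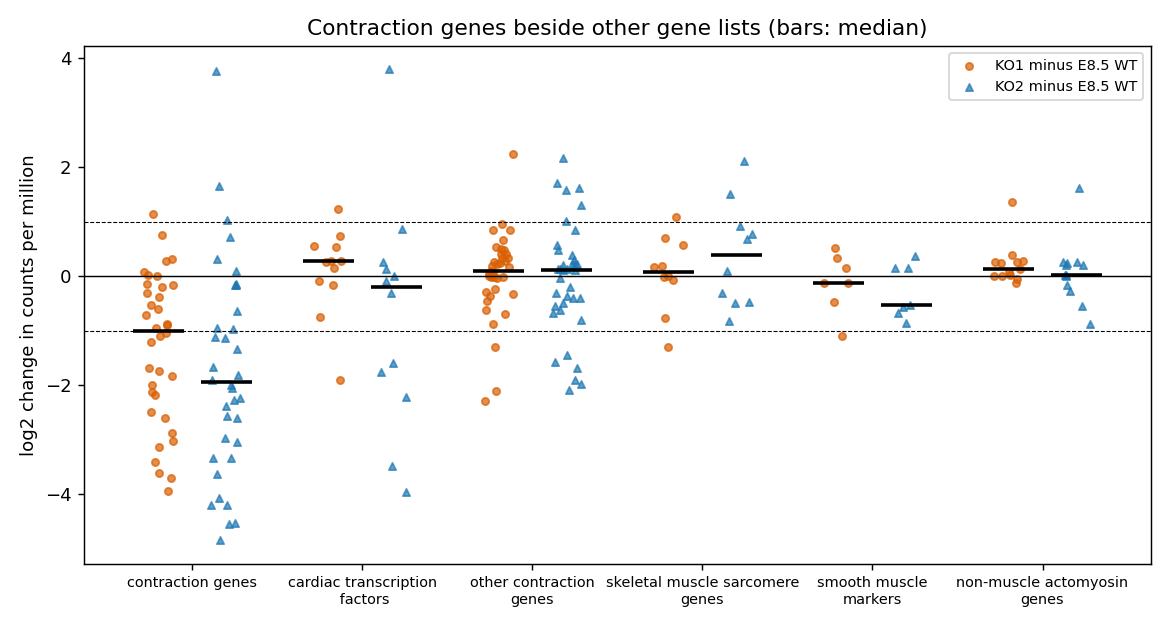
Log2 change against E8.5 WT of single genes in KO1 and KO2, for the contraction genes and for 5 other lists, with black bars at the medians and dashed lines at 2-fold. The contraction genes have medians of −0.99 and −1.95, and the medians of these 5 lists lie between −0.53 and 0.39.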

How the data were processed

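The authors deposited raw counts per gene for the 4 libraries, with no normalization. Per their methods, stranded mRNA libraries were trimmed with Cutadapt 2.8, aligned to mm10 with HISAT2 2.1.0 and counted over exons, by strand, with featureCounts 2.0.0. No exon of a contraction gene overlapped another gene on its strand. Groups came from the sample labels.

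TMM factors came from edgeR 4.0.16 (R 4.3.3), over all 4 libraries and the 14393 genes that had at least 10 counts in 1 library. Log2 changes are differences of log2 CPM with a prior count of 2. A call needed a log2 change above 1 or below −1, the study's criterion, in both KO libraries. Two-sided quasi-likelihood tests (edgeR) with Benjamini-Hochberg adjustment over all genes were run on 3 groups, with DESeq2 1.42.0 as the alternative. The lone WT libraries were assumed to vary like the KO pair. The p-values set each change against the spread between KO1 and KO2 alone. These pools differed in morphological stage by the study's text, and their spread may also be technical in part. The number of embryos in a WT library is not given in the sources used here.

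Intervals of ratios and shares are exact 95% Clopper-Pearson intervals, and folds against 0 reads used a floor of 3 counts per library. Both cover counting error only, since reads are not independent molecules. Precision was lowest for genes under about 50 reads.

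The genes and all lists were chosen with earlier results of these data known. Named genes are all contraction genes, and genes named from other lists are among the 3 lowest and 3 highest by mean KO change among genes with at least 50 reads in 1 library. Lad1, Tpbpa, Myf5, Myod1, Myog and Myf6 fall outside this rule and were named after their values were seen. Positions are from GENCODE M21 and promoters from RefSeq, both on GRCm38. The scripts were tested on simulated data. Counts of calls were recomputed with a log2 threshold of 2. These counts and the medians were also recomputed with a prior count of 0.5, scaling by DESeq2 size factors or by library totals alone (plain CPM), and the low-count filter removed or raised to 50 counts. Calls of KO against WT and changes of single genes against E8.5 WT were recomputed without each KO library, and shares per kilobase. The counts of genes whose KO levels lay between, below or above those of both WT stages, the tests against E7.5 WT and the other lists were not recomputed.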

Additional observations from a re-analysis of the deposited data

How the results depend on the processing

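Against E8.5 WT, the 17 contraction genes lower in both KO libraries became 10 at a log2 threshold of 2, and 18 to 24 with 1 KO library left out, which asks for a call in a single library. The count of higher genes was then 1 to 3 in place of 0. Against E7.5 WT, 4 genes were higher at a threshold of 2 in place of 12. With 1 KO library left out, 15 to 17 were higher and 2 to 4 lower. At a threshold of 2, the count lower in E8.5 WT than in E7.5 WT was 1, and KO2 was lower than KO1 in 6 genes and higher in 1. Shares of all genes past a threshold of 2 were not computed, so the counts at that threshold cannot be set against them. With a minimum of 50 counts, 0 were lower than E7.5 WT in both KO libraries in place of 1. The adjusted test against E8.5 WT called 2 genes with DESeq2 and, with edgeR, 1 (Actc1) without the filter, in place of 0. With edgeR it called 0 under the other scalings, a minimum of 50 counts and a fit of the E8.5 libraries alone.

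The median change against E7.5 WT, 0.81 in KO1 and 0.84 in KO2, was 0.80 and 0.80 with DESeq2 size factors, 0.84 and 0.87 with plain CPM, 0.74 and 0.71 with no filter, 1.57 and 1.16 with a minimum of 50 counts, and 1.15 and 1.12 with a prior count of 0.5. The cause was not tested. No gene called in both KO libraries changed sign under an alternative run. Among genes without a call, leaving out KO1 moved Tnni1 from 0.02 to −1.10. Leaving out KO2 moved Acta2 from −1.23 to 0.09, Nppb from 1.78 to −0.19, Hspb7 from 0.00 to −0.71 and Tpm2 from 0.09 to −0.13, and changed the sign of Tpm1 and Atp2a2 within 0.10 of 0. Hspb7 also changed sign within 0.01 of 0 with DESeq2 size factors and with a prior count of 0.5. Ldb3 was the only single gene to lose its call with another scaling, under plain CPM, at a mean of −1.99. No paired analysis was possible because each WT stage had 1 library.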
